A study of Mus musculus with 6 samples.

Results

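Perineuronal nets are lattices of extracellular matrix that wrap the cell bodies and proximal dendrites of some neurons, above all the fast-spiking parvalbumin interneurons of cortex. Chains of hyaluronan form their scaffold, lecticans (chondroitin sulfate proteoglycans) attach to it, link proteins lock the lecticans in place, and tenascin-R joins neighbouring lecticans into a mesh. A looser matrix of the same families fills the space between neurons and glia, and much of it is made by astrocytes and oligodendrocyte precursors. The genes described here are 9 chosen by name: the lecticans Acan, Bcan, Ncan and Vcan, the link proteins Hapln1 and Hapln4, the tenascins Tnr and Tnc, and Ptprz1, a receptor phosphatase whose secreted splice form, phosphacan, is itself a matrix proteoglycan. They are 9 of 54532 gene identifiers in the deposited tables, and all 9 passed the filter on low counts that left 17042 genes for testing.

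Messenger RNA was sequenced from cortex of 5XFAD mice, a transgenic line that models Alzheimer's disease, in which Thy1 promoter elements drive the transgenes in neurons and amyloid is deposited. In 3 cell-treated libraries the mice had received human GABAergic interneurons derived from induced pluripotent stem cells, as the series title describes them, and in 3 control libraries the mice had no cell therapy. All 6 mice thus carried the disease transgenes, and no wild-type group is used here. Age, sex and any sham operation are not given in the sources used here. The design text states 3 biological replicates a group. The control columns are named for the disease and not for the titles, and they were assigned by elimination, on which the sign of every difference rests. The design text also calls the mice given cell therapy the control group, and the groups here follow the sample labels instead.

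Total counts ran from 14880969 to 16696463 in cell-treated libraries and from 14221519 to 15607280 in control libraries. Markers of cortical excitatory neurons were present in all libraries, with a summed level of 3338 to 4734 CPM (counts scaled for library depth, with TMM factors) in cell-treated and 3105 to 5371 CPM in control libraries. Cell-treated library 3 stood apart: 414 tested genes lay at least 2-fold above and 1154 at least 2-fold below all the other 5 libraries, against at most 89 and 204 for any other library. Its astrocyte markers summed to 1238 CPM, against 5264 and 7062 CPM in the other cell-treated libraries and 4264 to 7742 CPM in controls. Striatal markers summed to 247 to 635 CPM in cell-treated and 520 to 1510 CPM in control libraries, the highest in control library 3. Most of the sum in cell-treated library 3 was Penk. It was at 96.8, 47.8 and 423 CPM in cell-treated and 69.1, 134 and 437 CPM in control libraries. All 7 striatal markers had lower mean values in cell-treated libraries. All but Penk, 6 of them, had an unadjusted p under 0.05 by edgeR, where 1.06% of all genes were lower at that p. For 4 the groups did not overlap, with lower values in cell-treated libraries, where 4.30% of all genes tested did the same. Ppp1r1b, which encodes DARPP-32 and is among these, was at 62.0, 91.7 and 124 CPM in cell-treated and 300.3, 179 and 464 CPM in control libraries. The part of this difference in the members' levels was not tested. Olfactory bulb markers summed to 320 CPM in cell-treated library 1 and to 7.16 to 31.2 CPM in the other 5. Because cell-treated library 3 stood apart, results below are given with and without it where it matters. Leaving it out removes neither the striatal difference between the groups nor the olfactory bulb values of cell-treated library 1.

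None of the 9 genes passed the test between groups. Acan and Tnc had the largest positive differences, Bcan the largest negative one, and each difference shrank or turned when cell-treated library 3 was left out, where Bcan was at 28.5 CPM while Tnc reached 41.2 CPM and Acan 23.5 CPM. By edgeR's quasi-likelihood test over 17042 genes, 0 of the 9 had an adjusted p under 0.05, where 0% of all genes did, and each of the 9 had an adjusted p of 0.999. At an unadjusted p under 0.05 there was 1 member, Acan, with higher values in cell-treated libraries, where 0.939% of all genes did the same. Values were higher in cell-treated libraries for 5 members and lower for 4, with a median log2 fold change of 0.10, beside 0.0013 over all genes tested. The groups did not overlap for 2 of the 9, Tnr (higher) and Bcan (lower), where 8.60% of all genes did not overlap, 4.30% in each direction. Exact two-sided permutation tests of the mean log2(CPM + 1) gave p = 0.1 for Tnr and Bcan, the smallest that 3 against 3 libraries allow, and from 0.2 to 0.7 for the other 7. Groups that do not overlap must give that smallest value, so for Tnr and Bcan it restates the lack of overlap.

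**Figure D1:**
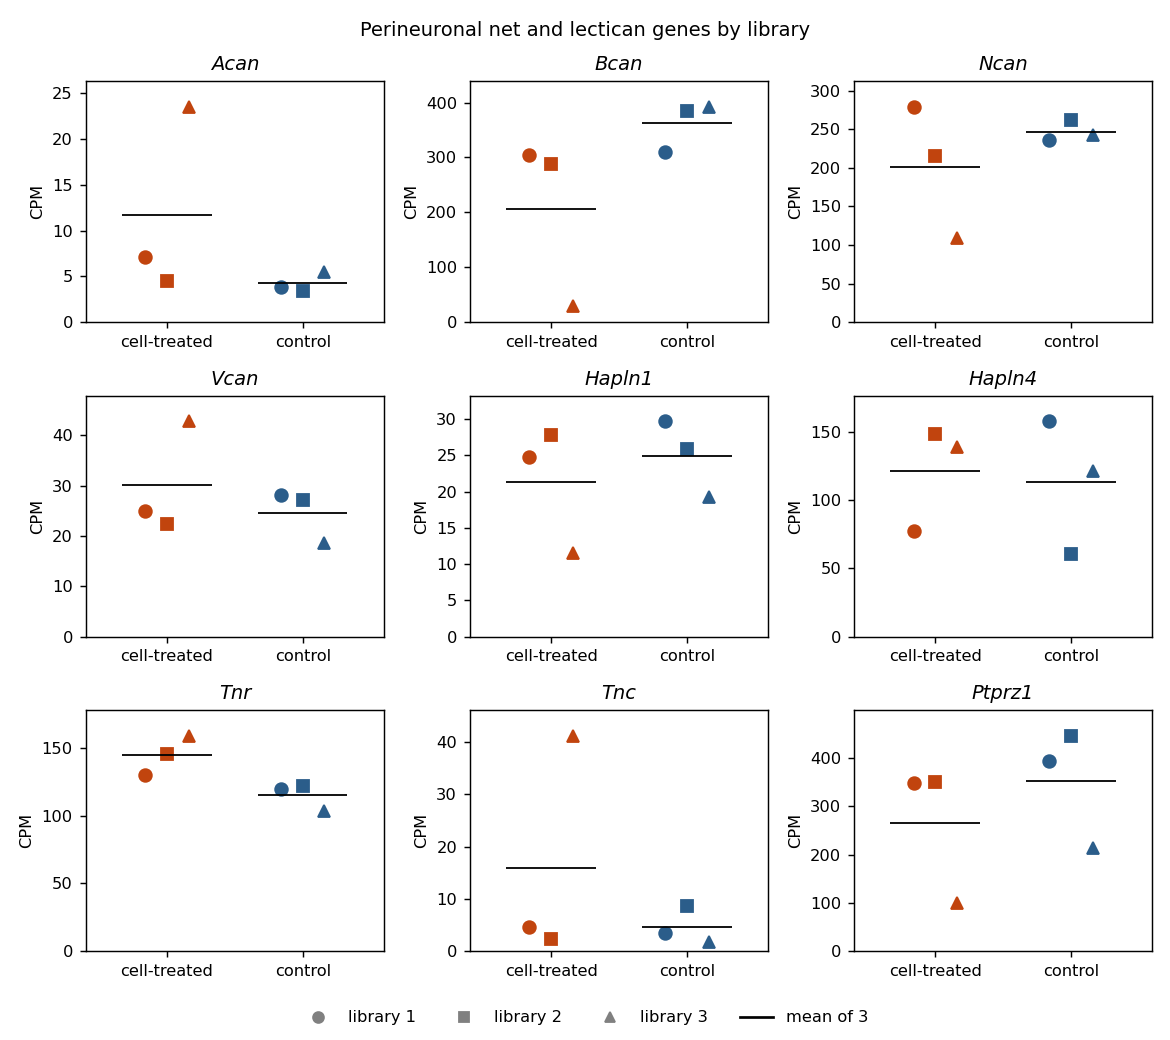
Level of each gene in CPM (vertical axis, from 0) in the cell-treated (left, orange) and control (right, blue) libraries; marker shape gives the library number in its group and the line the mean of 3. Cell-treated library 3 (triangle) is lowest for Bcan, Ncan, Hapln1 and Ptprz1 and highest for Acan, Vcan, Tnr and Tnc.

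The levels, compared between genes as FPKM (per kilobase of gene length), put Bcan first in the controls and Acan and Tnc last. Mean FPKM was 50.8 ± 37.9 in cell-treated and 88.4 ± 11.3 in control libraries for Bcan (SD, n = 3 each). In controls Ncan followed at 34.0 ± 1.96, Hapln4 at 28.5 ± 12.3 and Ptprz1 at 24.5 ± 8.47, and the ranges of each of these 3 overlapped that of its neighbour in the order. Tnr at 8.87 ± 0.783, Hapln1 at 4.20 ± 0.882 and Vcan at 1.69 ± 0.358 each stood clear of their neighbours in controls, while Tnc at 0.591 ± 0.458 and Acan at 0.561 ± 0.143 overlapped (FPKM, SD, n = 3). In the cell-treated group the order of means was Bcan, Hapln4, Ncan, Ptprz1, Tnr, Hapln1, Vcan, Tnc and Acan, and all neighbours overlapped in range except Tnr and Hapln1. Hapln4 led in cell-treated library 3 at 35.7 FPKM and Bcan, at 7.08 FPKM, came after Hapln4, Ncan and Tnr, whereas Bcan led in each of the other 5 libraries at 70.8 to 95.8 FPKM.

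**Figure D2:**
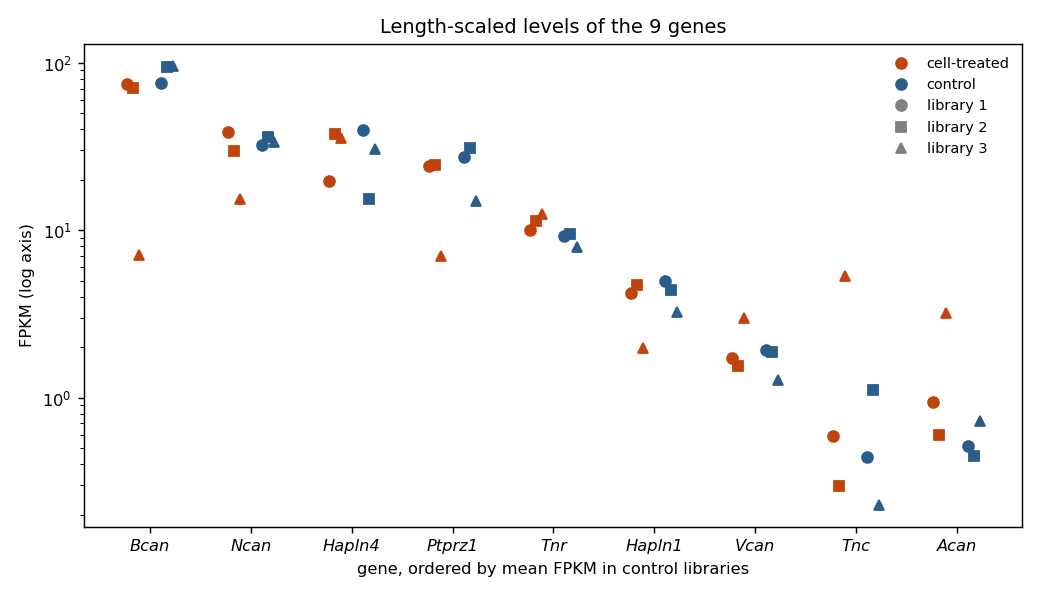
FPKM of the 9 genes on a log axis, ordered by mean level in controls, with cell-treated libraries (orange) left of control libraries (blue) and one point per library. Bcan is at 70.8 to 95.8 FPKM in 5 libraries and at 7.08 FPKM in cell-treated library 3, and Tnc and Acan are at the low end in the other 5.

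Among the lecticans, Bcan encodes brevican, which is largely restricted to brain and is a product of astrocytes and other glia. It lies on chromosome 3 (87987531 to 88000230, minus strand, coordinates as deposited). It was at 304, 288 and 28.5 CPM in cell-treated libraries 1, 2 and 3, against 310, 384 and 392 CPM in control libraries 1, 2 and 3. All cell-treated values lay below all control values, by a narrow margin between 304 and 310 CPM, and library 3 lay 10.1-fold below the lowest of the other 5. Its log2 fold change was -0.81 ± 0.69 (SE), with an unadjusted p of 0.277 by edgeR. Without cell-treated library 3 it was -0.29. In that setting 22.4% of all genes did not overlap. Bcan could not come to overlap, since groups already separate stay so when a library is left out. In a bulk library, fewer cells of a type and less RNA per cell cannot be told apart.

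Ncan encodes neurocan, a lectican of neurons and astrocytes that is most abundant in the developing brain (chromosome 8, 70093085 to 70120873, minus strand). Its values were 279, 215 and 109 CPM in cell-treated libraries, against 236, 261 and 242 CPM in controls. The groups overlapped: cell-treated library 1 held the highest value of all 6 and library 3 the lowest, 1.98-fold below the next. The log2 fold change was -0.29 ± 0.32 (SE), and 0.0031 without cell-treated library 3.

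Acan encodes aggrecan, the lectican that most closely marks perineuronal nets in cortex (chromosome 7, 79053483 to 79115099, plus strand). It was at 7.09, 4.46 and 23.5 CPM in cell-treated libraries, from 113, 66 and 378 reads, against 3.87, 3.37 and 5.43 CPM in controls, from 56, 48 and 85 reads. Cell-treated library 3 was 3.32-fold above the highest of the other 5, while library 2 lay below control library 3. For Acan the log2 fold change was 1.47 ± 0.60 (SE) with an unadjusted p of 0.0405 by edgeR. It was 0.45 without cell-treated library 3, with an unadjusted p of 0.221.

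Vcan encodes versican, made by oligodendrocyte precursors and by cells of the vessels and meninges (chromosome 13, 89655312 to 89742509, minus strand). It was at 25.03, 22.4 and 42.7 CPM in cell-treated libraries and 28.1, 27.1 and 18.6 CPM in controls. Both other cell-treated libraries lay inside the range of the controls. Versican's log2 fold change of 0.29 ± 0.29 (SE) was -0.053 without cell-treated library 3.

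The link proteins tie lecticans to hyaluronan, and the pair differed in which libraries held their low values. Hapln1, the cartilage link protein that is also needed for compact cortical nets, lies on chromosome 13 (89539796 to 89611652, plus strand). It was at 24.8, 27.8 and 11.5 CPM in cell-treated libraries and 29.7, 25.9 and 19.2 CPM in controls. Library 3 was the lowest of both groups, and the log2 fold change was -0.22 ± 0.34 (SE), or 0.075 without cell-treated library 3.

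Hapln4, a brain link protein that works with brevican at inhibitory synapses and around axons, lies on chromosome 8 (70083457 to 70090862, plus strand). It was at 77.1, 148 and 139 CPM in cell-treated libraries and 157, 60.2 and 121 CPM in controls. It was the one member for which cell-treated library 3 was neither highest nor lowest, and its low values were in cell-treated library 1 and control library 2. Its log2 fold change of 0.10 ± 0.38 (SE) turned to -0.0055 when cell-treated library 3 was left out, to -0.063 when cell-treated library 2 was, and to -0.20 when control library 2 was. Pvalb, which encodes the calcium buffer parvalbumin, was lowest in the same pair of libraries: 20.3, 65.6 and 35.2 CPM in cell-treated and 73.4, 21.1 and 64.2 CPM in control libraries. Syt2, the synaptotagmin of fast-spiking terminals, was likewise lowest in them, at 22.1, 91.3 and 32.9 CPM in cell-treated and 72.0, 20.4 and 87.6 CPM in control libraries. The other 6 parvalbumin interneuron markers did not share this pattern as a set: Gad1, at 954 CPM, and Erbb4, at 89.7 CPM, were highest of all 6 libraries in cell-treated library 1. The match was noticed after the values were seen and was not tested, and Acan and Hapln1 did not share it.

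Tnr encodes tenascin-R, made by oligodendrocyte lineage cells and some interneurons, which crosslinks the lecticans (chromosome 1, 159523769 to 159931729, plus strand). It was at 130, 146 and 159 CPM in cell-treated libraries and 120, 122 and 103 CPM in controls, averaging 145 ± 14.5 and 115.0 ± 10.1 CPM (SD, n = 3 each). Each cell-treated library lay above each control library. The log2 fold change of 0.33 ± 0.16 (SE) had an unadjusted p of 0.0791 by edgeR and did not pass over all genes. Leaving each library out in turn gave 0.26 to 0.40. With groups that do not overlap, leaving out a library could hardly turn the direction, so this is no further support. Its coefficient of variation over the 6 libraries was 15.2%, the smallest of the 9.

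Tnc encodes tenascin-C, which is abundant in development and is made again by astrocytes after injury (chromosome 4, 63959785 to 64047015, minus strand). It was at 4.58, 2.30 and 41.2 CPM in cell-treated libraries, from 73, 34 and 662 reads, against 3.45, 8.62 and 1.79 CPM in controls, from 50, 123 and 28 reads. Library 3 was 4.77-fold above the highest of the other 5, and the other cell-treated libraries lay within the range of the controls. Its coefficient of variation, 148%, was the largest of the 9. For Tnc the log2 fold change was 1.80 ± 1.05 (SE) with all libraries and -0.42 without cell-treated library 3.

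Ptprz1 binds the tenascins and cell adhesion molecules and is expressed by oligodendrocyte precursors and astrocytes (chromosome 6, 22875502 to 23052916, plus strand). It was at 348, 350 and 98.9 CPM in cell-treated libraries and 395, 445 and 214.5 CPM in controls. Each group's lowest value was in its library 3, that of the cell-treated group being 2.17-fold below the next of all. The log2 fold change was -0.40 ± 0.48 (SE) and -0.011 without cell-treated library 3. Counts are per gene, so the receptor and phosphacan forms are not separated.

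**Figure D3:**
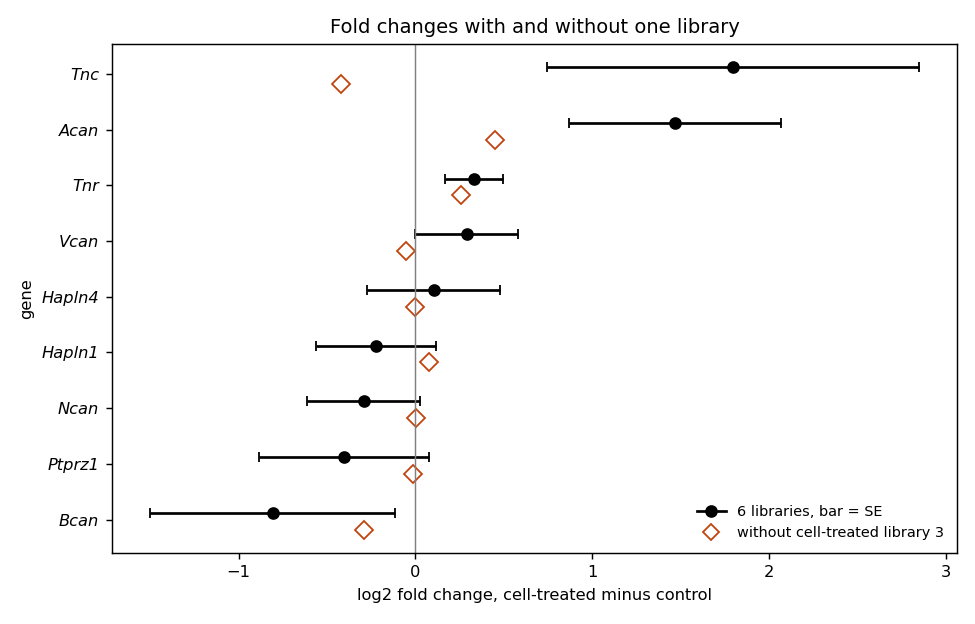
Log2 fold change of each gene, cell-treated minus control, from all 6 libraries (black, bar = SE) and without cell-treated library 3 (open diamonds). Tnc is at 1.80 with all libraries and at -0.42 without that one, Acan at 1.47 and 0.45, and Tnr at 0.33 and 0.26.

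Cell-treated library 3 held the lowest value of 4 members (Bcan, Ncan, Hapln1, Ptprz1) and the highest of 4 (Acan, Vcan, Tnr, Tnc). Extreme values were common in it, being the lowest for 5556 and the highest for 4887 of the 17042 genes tested. It lay at least 2-fold above the other 5 for 2 of the 9, Acan and Tnc, where 2.43% of all genes did, and at least 2-fold below them for 2, Bcan and Ptprz1, where 6.77% did. Marker lists also differed in this library. The lowest value of 6 of 7 astrocyte markers was in this library, with Slc1a2, the main astrocytic glutamate transporter, at 699 CPM there and 2670 to 4835 CPM in the other 5. The same held for 7 of 7 oligodendrocyte markers, summing to 3001 CPM against 4762 to 8520 CPM elsewhere, and for 5 of 7 oligodendrocyte precursor markers, summing to 234 CPM against 326 to 417 CPM. Markers of reactive astrocytes were highest there for 6 of 7, with Vim at 1015 CPM against 89.1 to 290 CPM elsewhere. Gfap was the exception, at 1435 CPM there and 1062 to 3416 CPM elsewhere. The sum of this list, 3128 CPM, lay within the 1250 to 4210 CPM of the other 5. Microglia markers summed to 971 CPM in it, against 449 to 723 CPM in the other 5, and of the 6 markers 4 were highest there and 1 lowest. Parvalbumin interneuron markers summed to 963 CPM in it, within the 557 to 1404 CPM of the other 5. Gad1 made up most of that sum, at 560 CPM there and 954 CPM in cell-treated library 1. Of the 8 markers, 1 was lowest in cell-treated library 3 (Kcnc2) and 1 highest (Lhx6). No marker of these lists was at 0 over the 6 libraries. The part of these cell types in the members' levels was not tested.

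**Figure D4:**
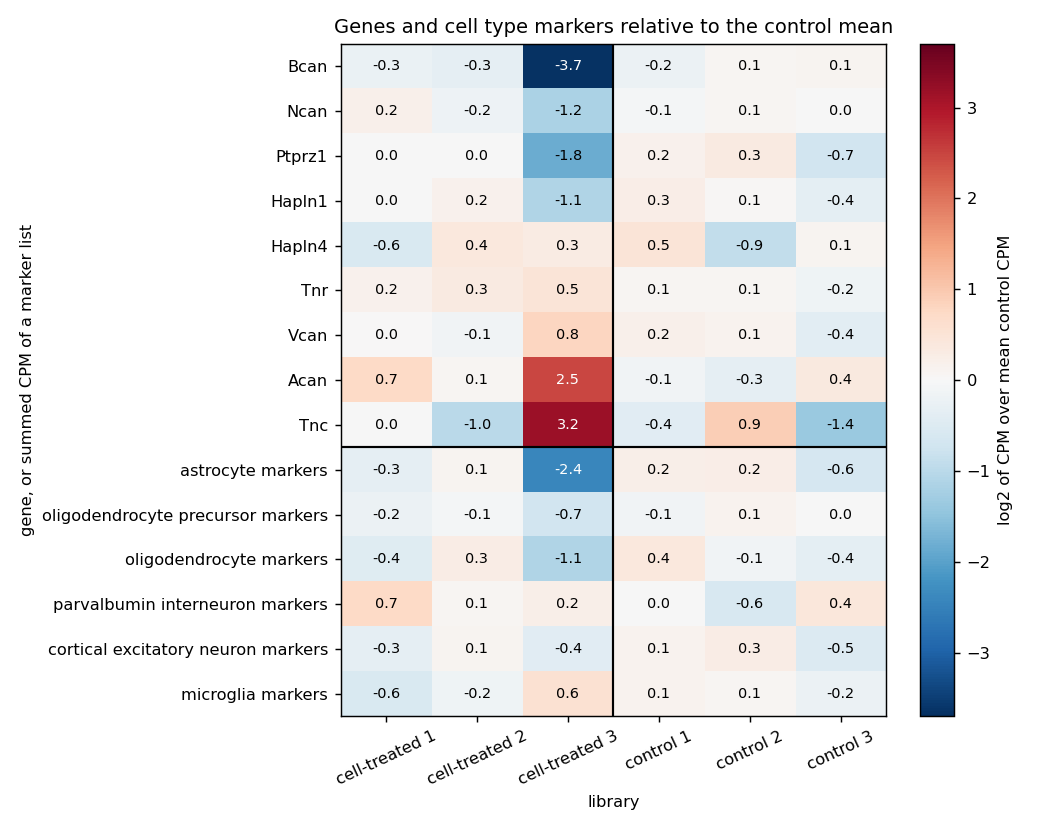
Log2 of CPM over the mean control CPM, for each gene (upper rows) and for the summed CPM of marker lists (lower rows), by library, cell-treated left of the line and control right of it. In cell-treated library 3 Bcan is at -3.7 and astrocyte markers at -2.4, while Acan is at 2.5 and Tnc at 3.2.

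The sequences upstream of the starts are shown for the genes lowest against the rest in cell-treated library 3 (Bcan, Ptprz1), those highest against the rest (Acan, Tnc) and the one whose groups separated upward (Tnr). RefSeq's GRCm38.p6 table held promoters for 8 of the 9 genes, all but Hapln4, and the 250 bases before the start were used. Capitals mark matches on either strand to any of 4 short motifs. The GC box was searched as GGGCGG and the TATA box as TATAAA. The CCAAT box was searched by the letters of its name, and a site of SOX type as ACAAAG. In Acan a pair of GC box matches overlap, and no other matches do. The AP-1 site, searched as TGANTCA (6.75% of all promoters), and a site of STAT type, searched as TTCNNNGAA (7.02%), matched none of the windows of the 8 genes, which says only that these letters are not there. The Tnc window is the one upstream of the first of its RefSeq starts.
Bcan, chr3:88000357-88000606, minus strand: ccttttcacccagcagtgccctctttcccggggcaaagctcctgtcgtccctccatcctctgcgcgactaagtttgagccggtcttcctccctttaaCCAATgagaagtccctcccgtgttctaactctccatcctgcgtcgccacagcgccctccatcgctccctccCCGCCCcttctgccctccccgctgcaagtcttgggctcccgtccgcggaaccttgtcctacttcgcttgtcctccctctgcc
Ptprz1, chr6:22875252-22875501, plus strand: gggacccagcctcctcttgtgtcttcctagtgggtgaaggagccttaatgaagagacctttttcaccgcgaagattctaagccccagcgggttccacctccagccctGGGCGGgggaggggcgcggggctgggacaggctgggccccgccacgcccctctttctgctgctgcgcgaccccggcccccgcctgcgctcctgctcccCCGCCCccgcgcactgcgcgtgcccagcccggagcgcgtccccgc
Acan, chr7:79052976-79053225, plus strand: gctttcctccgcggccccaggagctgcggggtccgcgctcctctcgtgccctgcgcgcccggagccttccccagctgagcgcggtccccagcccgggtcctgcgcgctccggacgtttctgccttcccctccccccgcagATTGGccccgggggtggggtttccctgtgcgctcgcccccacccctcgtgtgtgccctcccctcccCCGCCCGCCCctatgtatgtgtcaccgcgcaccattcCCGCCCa
Tnc, chr4:64047016-64047265, minus strand: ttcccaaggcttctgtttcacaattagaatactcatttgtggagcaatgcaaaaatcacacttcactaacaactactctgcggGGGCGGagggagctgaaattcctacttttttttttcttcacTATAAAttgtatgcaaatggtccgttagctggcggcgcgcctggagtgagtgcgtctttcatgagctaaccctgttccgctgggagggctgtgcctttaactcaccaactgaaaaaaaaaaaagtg
Tnr, chr1:159523519-159523768, plus strand: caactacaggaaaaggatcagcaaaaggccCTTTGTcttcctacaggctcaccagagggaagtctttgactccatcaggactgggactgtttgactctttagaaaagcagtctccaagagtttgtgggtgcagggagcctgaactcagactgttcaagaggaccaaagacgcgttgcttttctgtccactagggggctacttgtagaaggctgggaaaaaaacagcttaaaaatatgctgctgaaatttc

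These windows differed in base composition in a way that did not follow the split. Acan held 26 CpG dinucleotides and 74.4% G and C, Ptprz1 22 and 71.6%, and Bcan 16 and 62%, against a median of 6 CpG and 52.4% over the 32851 RefSeq promoters. Tnc held 8 CpG at 44.8%, and Tnr 2 CpG at 46.8%. A GC box match was found in Bcan, Ptprz1, Acan and Tnc, beside 32.7% of all promoters, and in Ncan and Vcan among the windows not shown. TATA box matches were in Tnc and Ncan (12.4% of all promoters), CCAAT box matches in Bcan, Acan and Vcan (33.8%), and the SOX-type match in Tnr alone of the 8 (16.5%). Hapln1 matched none of them. Counted from the start, the TATA box match began at -126 in the Tnc window shown and at -11 in Ncan. All these matches are of letters only, and none was tested as a working site.

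The lecticans and link proteins also share an arrangement that the choice of members did not use. Each lectican gene has a link protein gene as its neighbour with no annotated gene between them in the deposited table: Ncan and Hapln4 with 2222 bases between, Acan and Hapln3 with 2, Bcan and Hapln2 with 21519 and Vcan and Hapln1 with 43659. In 3 of the 4 pairs the genes are on opposite strands and converge, and Bcan and Hapln2 share a strand. The neighbours differed in how far they shared a library pattern. Hapln4 was at 139 CPM in cell-treated library 3, where Ncan had its lowest value, and Hapln1 had its lowest value there, where Vcan had its highest. Hapln2, the link protein of myelinated axon nodes, was at 29.4, 48.6 and 27.4 CPM in cell-treated and 56.5, 33.7 and 46.3 CPM in control libraries, a log2 fold change of -0.38 ± 0.28 (SE), and like Bcan it had its lowest value in cell-treated library 3. Hapln3 was at 3.14, 1.49 and 0.995 CPM in cell-treated and 1.04, 1.68 and 1.66 CPM in control libraries, with a log2 fold change of 0.36 ± 0.51 (SE), while Acan was at its highest in cell-treated library 3. Over the 6 libraries, which share that outlying one, Pearson r was 0.55 for Bcan and Hapln2, -0.22 for Acan and Hapln3, -0.48 for Ncan and Hapln4 and -0.58 for Vcan and Hapln1. Over the 5 without it r was -0.16, 0.79, -0.83 and 0.82 for the same pairs in that order, as a description of few points. Acan and Hapln3 do not overlap. No strand-marking kit is named, so reads that span or run past their facing ends could go to either gene. The genes that do overlap a member each held at most 48 reads over the 6 libraries.

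Ratios between genes within a library, as FPKM, were free of library scaling. They set members against each other, and in the last case Acan against Pvalb, which is not a member. Bcan to Ncan was 1.93, 2.37 and 0.464 in cell-treated and 2.33, 2.60 and 2.87 in control libraries. The log2 difference was -1.01, with an exact permutation p of 0.2, and -0.28 without cell-treated library 3. Tnc to Tnr was 0.0585, 0.0261 and 0.430 in cell-treated and 0.0477, 0.117 and 0.0287 in control libraries, with an exact permutation p of 0.7. Its log2 difference of 0.68 turned to -0.48 without cell-treated library 3. Hapln1 to Hapln4 was 0.214, 0.125 and 0.0552 in cell-treated and 0.125, 0.287 and 0.106 in control libraries, a log2 difference of -0.46 with an exact permutation p of 0.5. It was 0.067 without cell-treated library 3. Acan to Pvalb was 0.0488, 0.00947 and 0.0931 in cell-treated and 0.00734, 0.0222 and 0.0118 in control libraries. This log2 difference of 1.49 had an exact permutation p of 0.3, and it was 0.79 without cell-treated library 3. All 4 tests were two-sided, and adjusted over the 4 their exact permutation p-values ran from 0.6 to 0.7.

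The enzymes, receptors and other partners of the net were taken as lists. No gene of these lists passed edgeR's test over all genes. Of 13 genes of hyaluronan synthesis, turnover and binding, 11 were tested, with 6 higher and 5 lower and a median log2 fold change of 0.21. Cd44, the cell surface receptor for hyaluronan, was at 6.46, 8.58 and 72.3 CPM in cell-treated and 11.4, 8.55 and 4.67 CPM in control libraries, with its high value in library 3 as for Acan and Tnc. Its log2 fold change was 1.83 ± 0.89 (SE). Has3, a hyaluronan synthase, was at 2.89, 3.17 and 1.06 CPM in cell-treated and 2.97, 3.51 and 4.03 CPM in control libraries, a log2 fold change of -0.56 ± 0.45 (SE). The median of the list turned to -0.094 when cell-treated library 3 was left out and to -0.10 when cell-treated library 1 was. Hmmr, a hyaluronan receptor of dividing cells that is too low for the naming rule and was picked after its values were seen, was at 0.878, 0.878 and 0.871 CPM in cell-treated and 0.345, 0.351 and 0.511 CPM in control libraries.

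Of 21 genes that build and sulfate chondroitin chains, 20 were tested, with 11 higher and 9 lower and a median log2 fold change of 0.050. That median was -0.062 without cell-treated library 1. Chst11, a chondroitin 4-O-sulfotransferase, had a log2 fold change of 0.29 ± 0.20, B3gat3, which completes the linker to the core protein, -0.31 ± 0.22, and Xylt2, which starts the chain, -0.22 ± 0.18 (SE). Of 14 proteases that cut lecticans and their inhibitors, 13 were tested, with 8 higher and 5 lower and a median of 0.30, which was -0.053 without cell-treated library 3. Adamts1, an aggrecanase of vessels and reactive tissue, was at 20.01, 28.3 and 70.8 CPM in cell-treated and 23.9, 22.7 and 21.7 CPM in control libraries. Its log2 fold change was 0.80 ± 0.43 (SE). Timp4, an inhibitor of matrix metalloproteinases rich in astrocytes, had -0.48 ± 0.26 and Adamts5, an aggrecanase, 0.74 ± 0.48 (log2 fold change, SE).

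Of 18 receptors and net-bound proteins, 17 were tested, with 11 higher and 6 lower and a median log2 fold change of 0.061. Nptxr, the neuronal pentraxin receptor, was at 658, 502 and 545 CPM in cell-treated and 588, 929 and 911 CPM in control libraries, a log2 fold change of -0.51 ± 0.24 (SE). Sema3a, a guidance protein held in nets, had 0.44 ± 0.26 and Rtn4rl1, a receptor for chondroitin sulfate and myelin inhibitors, -0.37 ± 0.19 (log2 fold change, SE). Of 8 other chondroitin sulfate proteoglycans of brain, 4 were higher and 4 lower, with a median of 0.054, which was -0.083 without control library 1. Cspg5, neuroglycan C, was at 378, 350 and 116 CPM in cell-treated and 341, 423 and 498 CPM in control libraries, with the same low library as Bcan, and a log2 fold change of -0.58 ± 0.41 (SE). Spock1, a testican, had 0.38 ± 0.22 and Cspg4, the NG2 proteoglycan of oligodendrocyte precursors, -0.29 ± 0.21 (log2 fold change, SE).

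Over the 6 libraries, the genes whose log2 levels were most like each member's had Pearson r from 0.968 to 0.999, given as a description, since 10783 candidate genes were compared over 6 points that share one outlying library. Bcan was most like Plekhn1 (r = 0.998, and 0.903 without cell-treated library 3), Ncan most like Ccdc34 (0.999 and 0.983) and Ptprz1 most like Mfn1 (0.994 and 0.975). Acan was most like Rnf2 (r = 0.996, and 0.965 without that library), Vcan most like Tiparp (0.998 and 0.995) and Tnc most like Furin (0.985 and 0.936). Hapln1 was most like Tmem229a (r = 0.998 and 0.988), Hapln4 most like Kctd3 (0.986 and 0.987) and Tnr most like Pclo (0.980 and 0.9997).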

How the data were processed

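Poly-T beads, random hexamer priming and PCR were used for the 6 cortex libraries, per the labels' protocols, which name no molecular identifiers; one batch label covers all. Tools named in the submitters' processing notes are featureCounts, DESeq2 and HISAT2 2.0.5, with no settings. The deposited table holds whole-number counts per gene, made by the authors. The deposited FPKM equalled counts over gene length and a library total that the authors scaled by 0.953 to 1.03. No genome build is named; of 54409 identifiers shared with GENCODE M21 (GRCm38), 98.3% had the same start and end, as had all 9 members. Another table repeating the FPKM was not used. Columns named for the disease were taken as controls and carry the numbers of their headers. Human reads were not separated.

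The test was that of edgeR 4.0.16 (R 4.3.3): filterByExpr (minimum count 10, minimum total 15), TMM factors, the robust quasi-likelihood test, and Benjamini-Hochberg adjustment over all genes at 0.05; SE come from the F statistic. The same step was run on simulated counts. No simulated library was made to stand apart as cell-treated library 3 did, so the run does not show how the test behaves with such a library. Alternatives used DESeq2 1.42.0, limma 3.58.1, other scalings and filters, a replicate block and left-out libraries. The members and lists were chosen with earlier results of these data known. All members are named; from each list, the 3 with the smallest p among genes averaging 1 or more in log2 CPM; for likeness, candidates averaged 3 or more. A few genes named otherwise were picked after their values were seen, as stated there or as members of the marker lists. Figures used matplotlib 3.10.9.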

Additional observations from a re-analysis of the deposited data

How the results depend on the processing

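No member passed the threshold under any of the 18 alternatives run, nor did any gene of the 5 partner lists. Over all genes 0 passed with edgeR, except 1 without a low-count filter; DESeq2 called 9, none of them a member. Of 162 member fold changes under the alternatives, 150 kept their direction. The 12 that turned all came from leaving out libraries or weighting them, and the cause was not tested. Leaving out cell-treated library 3 turned Ncan, Vcan, Hapln1, Hapln4 and Tnc, and leaving out library 2 of either group turned Hapln4. With single libraries left out, fold changes (log2) ranged from -0.61 to 0.0031 for Ncan, -0.053 to 0.46 for Vcan, -0.47 to 0.075 for Hapln1, -0.20 to 0.42 for Hapln4 and -0.42 to 2.61 for Tnc. Settings added after seeing the data gave -0.22 for Vcan and -0.81 for Tnc without both library 3s, and -0.11 for Vcan, -0.18 for Hapln4 and -0.10 for Tnc by limma voom with sample quality weights. The members' median of 0.10 ranged from -0.20 (without control library 2) to 0.36 (without control library 1) with single libraries left out, and was -0.081 without both library 3s and -0.11 with quality weights.

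The members whose groups do not overlap numbered 2 to 4 with single libraries left out, where 13.9% to 22.4% of all genes did not overlap. At 4 members, without control library 3, the share was 22.0%. The count could not fall below 2, since leaving out a library cannot make separate groups overlap. With single libraries left out, medians ranged from -0.10 to 0.32 for the hyaluronan list, -0.062 to 0.086 for chondroitin synthesis, -0.053 to 0.60 for the proteases and -0.083 to 0.088 for other proteoglycans. Without both library 3s they were -0.11 for the hyaluronan list and -0.084 for the proteases, and with quality weights -0.15 for the hyaluronan list and -0.048 for the receptors. The log2 ratio ranged from -0.91 to 0.067 for Hapln1 to Hapln4 and from -0.48 to 1.54 for Tnc to Tnr. Differences of mean log2(CPM + 1) ranged from -0.031 to 0.42 for Vcan, -0.51 to 0.092 for Hapln1, -0.24 to 0.45 for Hapln4, -0.20 to 1.64 for Tnc and -0.87 to 0.057 for Ptprz1.

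Same-numbered libraries of the groups did not deviate together (r = -0.31, 0.097 and 0.068), so the replicate number was not taken as a pairing. With it as a block, 0 genes and 0 members passed, and the members' median was 0.16. At an unadjusted p under 0.05 the count over all genes was 340, and it was 203 to 796 with single libraries left out, 1531 without both library 3s and 1899 with quality weights. Acan and Tnc rest on 28 to 123 reads in the 5 lower libraries, which limits their precision.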

Other observations

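Some partner genes that the naming rule does not take also had their extreme value in cell-treated library 3, and they were picked after their values were seen. Timp2, an abundant inhibitor of matrix metalloproteinases, was at 306, 227 and 1058 CPM in cell-treated and 353, 318 and 346 CPM in control libraries. Nptx1, a secreted neuronal pentraxin, was at 244, 298 and 771 CPM in cell-treated and 410, 258 and 209 CPM in control libraries. Itgb8, an integrin of astrocytes, was at 127, 129 and 41.7 CPM in cell-treated and 105.0, 120 and 69.1 CPM in control libraries. Adamts15, which cuts versican, was at 11.9, 5.67 and 2.30 CPM in cell-treated and 7.66, 7.01 and 6.52 CPM in control libraries. None of them passed edgeR's test over all genes.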
